A study of Mus musculus with 6 samples.

Results

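Olfactory receptor genes with a signal above the bulk of their family in mouse heart were followed across 6 microarrays. A probe set (the group of probes that reads 1 gene) was taken as a member when the array annotation gave it a single gene symbol starting with Olfr and its mean log2 signal over the 6 arrays was at least 6.5. This chose 52 probe sets for 52 genes, out of 1035 single-symbol olfactory receptor probe sets for 1027 genes and 35556 probe sets in all. The members were therefore picked on measured signal, and their signal is given below as a description without a test. The other 983 probe sets, for 976 genes, are called the dim family members. Olfr54 has a probe set on each side of the limit, with a second mean of 5.47 against 6.72 for the member.

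The study compared VAChT KDHOM mice, homozygous for a knockdown of the vesicular acetylcholine transporter (gene Slc18a3), with WT mice. VAChT loads acetylcholine into the vesicles of cholinergic neurons, so the allele lowers acetylcholine release wherever those neurons act, in the heart and elsewhere. All animals were untreated males of 3 months, labelled C57BL/6 by the submitters and described in the study's methods as a mixed background with backcrossing to C57BL/6J. Each group had 3 Mouse Gene 1.0 ST arrays, and each array received a pool of 2 RNA samples from heart (ventricles, per the methods), so p-values measure the spread between pools.

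Olfactory receptors are G protein-coupled receptors that bind odorants on the cilia of olfactory sensory neurons, each of which uses a single allele of a single receptor gene. The receptor couples to Golf and adenylyl cyclase 3, and the cyclic AMP that forms opens a cyclic nucleotide-gated channel. Their genes have intronless coding regions and lie in clusters on most chromosomes, and some family members have been described outside the nose, in kidney, blood vessels, sperm and heart.

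Before any result, 3 features of the arrays are given because they touch the contrast. The targeted gene, Slc18a3, read 7.24, 6.77 and 7.58 in VAChT KDHOM hearts, against 7.31, 7.42 and 7.11 in WT hearts, a log2 difference of -0.08 that does not separate the groups. Ogdhl, a mitochondrial dehydrogenase gene, read 7.06, 10.17 and 7.09 in VAChT KDHOM hearts, against 9.60, 7.21 and 10.33 in WT hearts, so the array numbered 2 of each group went against the other arrays carrying its label. The group labels of these 2 arrays are therefore in doubt, and the labels alone cannot tell whether they were exchanged. As labelled, Ogdhl had a log2 difference of -0.94. Exchanging both arrays would place all its low values in VAChT KDHOM and all its high values in WT. The study's own gene list gives Ogdhl a far larger fall than the labelled groups do. The size of that listed fall matches the exchanged grouping and not the labels. Lhx2 read 6.75, 7.13 and 6.56 in VAChT KDHOM hearts, against 7.26, 6.93 and 7.03 in WT hearts. The study lists it as lower by over 1.3-fold, while its labelled log2 difference of -0.26 is under that fold. No fit with exchanged labels was made, and the groups below are as labelled. The differences between groups rest on those labels. The median difference and the counts below 0, past both thresholds and of non-overlapping groups are also given without both arrays. So are the differences of Olfr767, Olfr320, Olfr1347 and Olfr558. Other counts and differences are given only as labelled. The ventricular cardiomyocyte list (7 of 7 genes at or above 6.5, median signal 13.6) showed the labelled tissue on every array, but array 1 of VAChT KDHOM had the lowest value for each of its 7 genes. Actc1, the cardiac actin, read 13.59, 14.62 and 14.65 in VAChT KDHOM hearts, against 14.59, 14.63 and 14.53 in WT hearts.

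The bases just before the gene model are shown for 4 members chosen to span the family: Olfr767, the member with the highest signal, Olfr558, the steadiest of the 4 brightest, and Olfr71 and Olfr1148, members near the top and at the bottom of the range of base composition. The sequences are the 250 bases before the annotated start, from RefSeq on GRCm38.p6, 5′ to 3′ on the gene's own strand. They lie at chr10:129079962-129080211 on the minus strand, chr7:102702073-102702322 on the plus strand, chr4:43706567-43706816 on the minus strand and chr2:87832791-87833040 on the plus strand. Capitals mark a match, on either strand, to 1 of 5 motifs that were searched.
Olfr767: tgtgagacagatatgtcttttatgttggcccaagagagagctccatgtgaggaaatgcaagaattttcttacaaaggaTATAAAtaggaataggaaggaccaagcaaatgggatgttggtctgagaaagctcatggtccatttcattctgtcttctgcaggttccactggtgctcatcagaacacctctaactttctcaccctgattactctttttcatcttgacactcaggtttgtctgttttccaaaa
Olfr558: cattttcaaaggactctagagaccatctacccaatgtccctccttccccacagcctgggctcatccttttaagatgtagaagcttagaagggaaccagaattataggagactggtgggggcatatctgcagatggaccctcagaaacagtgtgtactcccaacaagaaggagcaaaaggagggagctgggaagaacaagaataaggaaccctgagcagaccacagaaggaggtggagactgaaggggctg
Olfr71: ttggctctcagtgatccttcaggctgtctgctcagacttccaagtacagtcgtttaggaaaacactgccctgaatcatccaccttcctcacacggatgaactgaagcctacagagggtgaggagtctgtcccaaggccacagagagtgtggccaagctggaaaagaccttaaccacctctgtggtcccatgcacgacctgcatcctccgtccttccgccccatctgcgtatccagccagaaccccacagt
Olfr1148: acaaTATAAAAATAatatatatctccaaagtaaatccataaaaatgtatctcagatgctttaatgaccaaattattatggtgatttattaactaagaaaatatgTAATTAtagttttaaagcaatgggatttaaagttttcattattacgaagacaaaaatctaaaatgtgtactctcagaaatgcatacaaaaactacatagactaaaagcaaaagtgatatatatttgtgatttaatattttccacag
Olfr767 has a TATA match in a window with 40.8% G and C. Olfr558 and Olfr71 have none of the motifs, with 50% and 54.8% G and C. Olfr1148, with 23.2% G and C, has a homeodomain match and a run in which the TATA and MEF2 matches overlap.

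The family as a whole lay low on this array, and the members formed its upper tail. Their mean log2 signal had a median of 6.76 and ran over 6.51 to 9.08, against a median of 4.65 and a range of 2.87 to 6.499 for the dim family members. Of the 52 members, 20 reached 7, 4 reached 8 and 1 reached 9. For scale, 57.6% of all probe sets lay at or above 6.5, so the limit marks a high place within this family and a middling one on the array. The values used hold no detection call, so 6.5 is the limit of the rule and not a measured background. Genes that heart tissue should lack can reach it: Prm2, a protamine of sperm, averaged 7.27 and Omp, a marker of olfactory neurons, 6.63. Prm2 was the only 1 of the 5 spermatid and sperm genes listed to reach 6.5, while 5 of 10 olfactory neuron markers did. Probe sets differ in how well they bind, so an order of signals between genes is not an order of transcript amounts. Just inside the limit lay Olfr645 (6.51), Olfr433 (6.53) and Olfr140 (6.54), and just outside it Olfr1272 (6.499), Olfr149 (6.49) and Olfr372 (6.48).

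**Figure D1:**
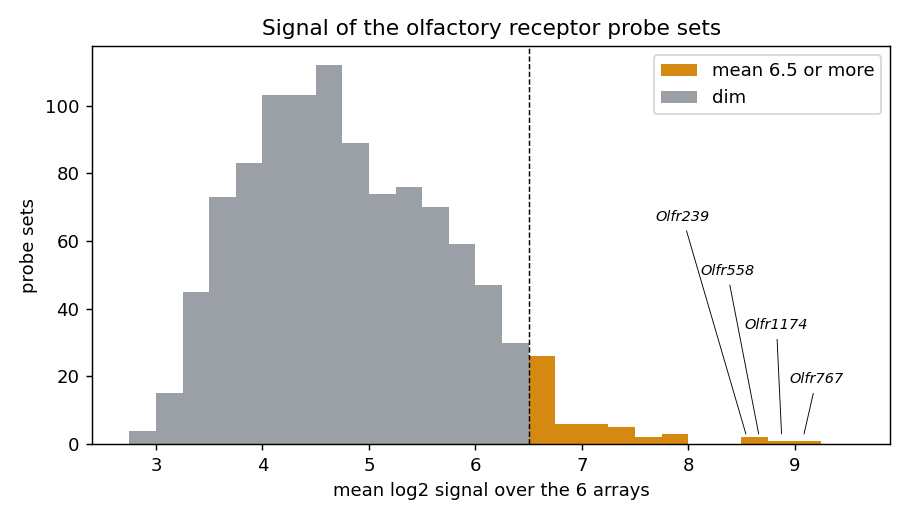
Histogram of the mean log2 signal over 6 arrays (x axis) of 1035 olfactory receptor probe sets (y axis, number of probe sets), members in orange and dim family members in grey, with a dashed line at 6.5. The 52 members continue the falling right side of the distribution, and only Olfr767, Olfr1174, Olfr558 and Olfr239 stand past 8.

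The other chemoreceptor families fixed for comparison had few probe sets as bright. Among olfactory receptors 5.02% of probe sets reached 6.5. The vomeronasal receptors Vmn1r and Vmn2r had 1 of 119 and 1 of 56, the bitter taste receptors Tas2r had 0 of 35 and the trace amine receptors Taar 0 of 13. The sweet and umami taste receptors Tas1r had 2 of 3. A further 100 probe sets carry an olfactory receptor symbol together with others and were not members, and 5 of these reached 6.5.

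Of the 4 members past 8, Olfr767 on chromosome 10 had the highest signal and was also the least steady. It read 8.84, 9.04 and 8.28 in VAChT KDHOM hearts, against 10.03, 9.18 and 9.11 in WT hearts. The groups did not overlap, but the span of 1.76 over the 6 arrays was the widest of all members, and the extremes were array 1 of WT and array 3 of VAChT KDHOM.

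Olfr1174, the member that RefSeq annotates as a pseudogene, lies on chromosome 2 and read 8.82, 9.02 and 8.38 in VAChT KDHOM hearts, against 9.11, 9.01 and 8.93 in WT hearts. Its groups overlapped, with array 3 of VAChT KDHOM the lowest. The other 51 members are annotated as protein-coding.

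Olfr558 is a receptor of the class I (fish-like) cluster on chromosome 7, known to respond to short-chain fatty acids and described in smooth muscle of blood vessels. It read 8.56, 8.65 and 8.83 in VAChT KDHOM hearts, against 8.68, 8.72 and 8.58 in WT hearts. The 6 arrays lay within 0.27 of each other, and the groups interleaved. The gene model at chr7:102702323-102712054 is 9732 bp long, on the plus strand, with 2 RefSeq transcripts, while the median member is 954 bp long, about the size of a bare coding region.

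Olfr239, on chromosome 17, read 8.45, 8.53 and 8.14 in VAChT KDHOM hearts, against 8.77, 8.59 and 8.83 in WT hearts. Here the groups did not overlap, but the gap between the closest arrays was small.

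The next 6 members by signal were Olfr282, Olfr91, Olfr1395, Olfr314, Olfr524 and Olfr1393, with means of 7.45 to 7.81. Olfr91 read 7.59, 7.79 and 7.49 in VAChT KDHOM hearts, against 8.02, 8.01 and 7.94 in WT hearts. All 3 VAChT KDHOM arrays were below every WT array, and the same held for Olfr1393, described below. The groups of Olfr282, Olfr1395, Olfr314 and Olfr524 overlapped, in each case with array 1 of WT the highest and array 3 of VAChT KDHOM the lowest.

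**Figure D2:**
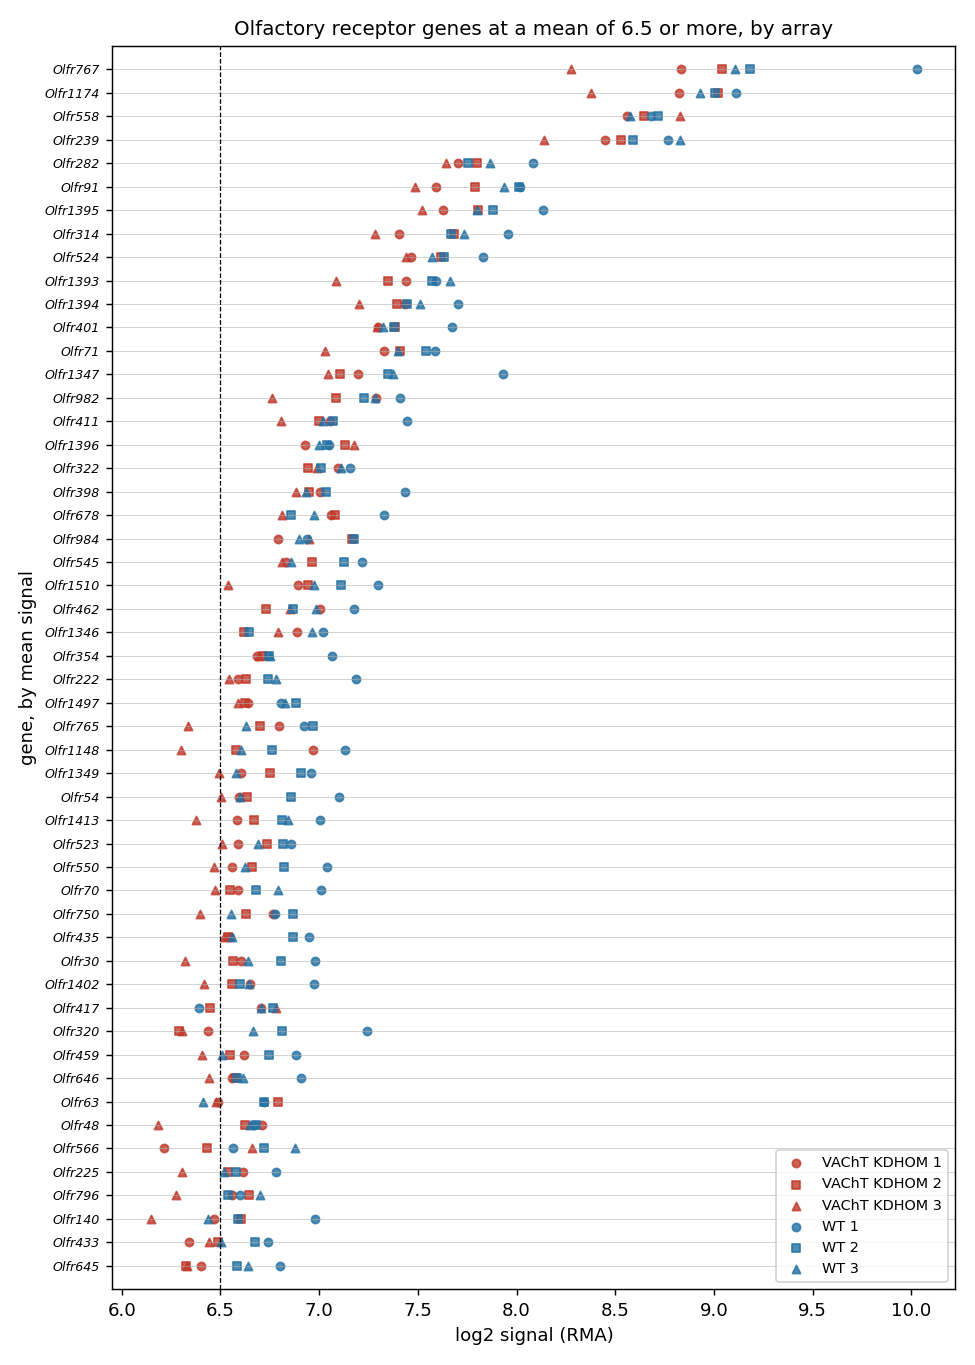
Log2 signal (x axis) of the 52 members (y axis, ordered by mean signal), 1 point per array, VAChT KDHOM arrays in red and WT arrays in blue, with the array number as the marker shape and a dashed line at 6.5. Olfr558 is narrow, with a span of 0.27, while Olfr767 spreads over 1.76 log2 units, and array 1 of WT lies rightmost in 39 rows.

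A list of 13 olfactory receptors described outside the nose was set against the members, to ask which could be read in heart. Of these, 11 had a probe set with a single symbol, and 2 of the 11, Olfr558 and Olfr1393, were members. Olfr78 and Olfr1373 were not analysed here. Olfr1393, described in the renal proximal tubule, read 7.44, 7.35 and 7.08 in VAChT KDHOM hearts, against 7.59, 7.57 and 7.66 in WT hearts. It was lower on every VAChT KDHOM array than on any WT array.

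The other 9 lay below 6.5. Olfr90 averaged 5.74 over the 6 arrays, Olfr1426 5.70, Olfr920 5.68 and Olfr1392 5.61, all of them receptors described in kidney. Olfr691 averaged 5.46 and Olfr544, a receptor for a dicarboxylic acid described in fat and liver, 5.36. Olfr16, described in sperm and skeletal muscle, averaged 4.98, Olfr15, described in the endocrine pancreas, 4.87, and Olfr2, described in macrophages, 4.35. These 9 means fall inside the range of the dim family members, most of them above its median of 4.65.

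Olfr90 read 5.64, 5.54 and 5.42 in VAChT KDHOM hearts, against 6.26, 5.86 and 5.74 in WT hearts, and Olfr91, the member beside it on chromosome 17, had the same order of groups. Olfr920 read 5.68, 5.79 and 5.88 in VAChT KDHOM hearts, against 5.59, 5.74 and 5.42 in WT hearts, with overlapping groups and a log2 difference of 0.20.

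The proteins that carry the olfactory signal were measured as a separate list, chosen for their role. Of 16 symbols, 15 had a probe set, and 9 reached 6.5: the cyclase Adcy3, the channel subunit Cngb1, the G protein subunits Gng13 and Gnb1, the exchange factor Ric8b, the receptor transporters Rtp2 and Reep1, the phosphodiesterase Pde1c and the kinase Grk3. Several of these are used by many cells. Gnal, the alpha subunit of Golf, averaged 4.89 and Cnga2, the principal channel subunit, 4.91, while Gng13 averaged 6.77, Rtp2 6.82 and Cngb1 8.29. By unadjusted p in limma, 4 of the 15 (Gnal, Cngb1, Gng13 and Rtp1) were lower in VAChT KDHOM and 0 were higher, where 7.81% of all probe sets were lower, and none of them was past an adjusted p of 0.05.

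The genes listed as markers of olfactory sensory neurons had a median signal of 6.52, with means from 4.45 (Ncam2) to 7.72 (Ebf2). Of 10 genes measured, 5 reached 6.5, and their summed log2 signal was 60.1 to 62.2 in VAChT KDHOM hearts, against 62.1 to 64.6 in WT hearts. Omp, the olfactory marker protein, read 6.54, 6.63 and 6.29 in VAChT KDHOM hearts, against 7.03, 6.77 and 6.49 in WT hearts. Its extremes were again array 1 of WT and array 3 of VAChT KDHOM. The part of these markers in the members' values was not tested.

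Markers of smooth muscle, a cell type in which Olfr558 has been described, had a summed log2 signal over 4 genes of 37.1 to 37.2 in VAChT KDHOM hearts, against 36.1 to 37.0 in WT hearts, and 1 of the 4 was higher in VAChT KDHOM at an unadjusted p of 0.05 in limma, where 3.93% of all probe sets were. In whole tissue, fewer cells of a type and less RNA per cell cannot be told apart.

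Between the groups, most members were lower in VAChT KDHOM by a small amount. The median log2 difference, VAChT KDHOM minus WT, was -0.22 over the 52 members, with 49 below 0 and a range of -0.72 to 0.05. Over the dim family members the median was -0.11, with 817 of 983 below 0, and over all probe sets it was -0.02, with 54.2% below 0. The direction was therefore shared by the family, and no test was made of the members against the rest. Named genes of other families in the same range of signal, 10122 probe sets, had a median difference of 0.0035. The other chemoreceptor families also had medians below 0. These were -0.07 for Vmn1r, -0.04 for Vmn2r, -0.28 for Tas1r (3 probe sets), -0.07 for Tas2r and -0.19 for Taar. The listed spermatid and sperm genes had a median of -0.18, so the direction was not particular to olfactory receptors.

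Few members passed a test singly. All 52 entered the fit, which had no filter on low signal. By limma on all probe sets, 15 of 52 members were lower at an unadjusted p of 0.05 and 0 were higher, where 7.81% of all probe sets were lower. With a fold of at least 1.3 added, the thresholds of the study, 3 were lower and 0 higher, where 1.67% of all probe sets were lower. At an adjusted p of 0.05 the count was 0, and the lowest adjusted p of a member in limma was 0.409, while 0.00281% of all probe sets passed. With 3 arrays against 3, an exact permutation test of 1 gene cannot go below a two-sided p of 0.1.

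The 3 members past both thresholds were Olfr767, Olfr320 and Olfr1347. Olfr320, in the cluster on chromosome 11, read 6.44, 6.29 and 6.31 in VAChT KDHOM hearts, against 7.24, 6.81 and 6.66 in WT hearts, a log2 difference of -0.56 ± 0.15 (SE, n = 3 each, limma adjusted p = 0.409). Olfr1347, on chromosome 7, read 7.20, 7.10 and 7.05 in VAChT KDHOM hearts, against 7.93, 7.35 and 7.37 in WT hearts, a difference of -0.44 ± 0.16 (SE, n = 3 each, limma adjusted p = 0.409). For Olfr767 the difference was -0.72 ± 0.28 (SE, n = 3 each, limma adjusted p = 0.412).

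Each of the 3 had its highest value on array 1 of WT. Without that array the differences were -0.43 for Olfr767, -0.39 for Olfr320 and -0.24 for Olfr1347, only Olfr320 was past both thresholds (0.889% of all probe sets were lower by them), and the median difference of the members was -0.14. Without array 3 of VAChT KDHOM the median was also -0.14, and 2 members were past both thresholds, where 1.14% of all probe sets were lower. Without array 2 of VAChT KDHOM 8 members were past them, where 2.79% of all probe sets were lower.

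Without both arrays numbered 2, whose labels are in doubt, the median difference was -0.25, with 49 members below 0, against -0.15 for the dim family members and -0.03 for all probe sets. Then 9 members were lower past both thresholds, where 4.21% of all probe sets were, so the count rose over the whole array as well. The differences were -1.01 for Olfr767, -0.58 for Olfr320, -0.53 for Olfr1347 and 0.07 for Olfr558.

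The opposite sign was seen in 3 members, and none of them passed the test. Olfr1396, a neighbour of Olfr1395 on chromosome 11, read 6.93, 7.13 and 7.18 in VAChT KDHOM hearts, against 7.05, 7.04 and 6.998 in WT hearts, a difference of 0.05 ± 0.09 (SE, n = 3 each, limma adjusted p = 0.833). Olfr417 had a difference of 0.02 and Olfr558 of 0.02 ± 0.10 (SE, n = 3 each, limma adjusted p = 0.935). Olfr1395 itself had a difference of -0.29, so these members of 1 cluster had opposite signs, a difference that was not tested.

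**Figure D3:**
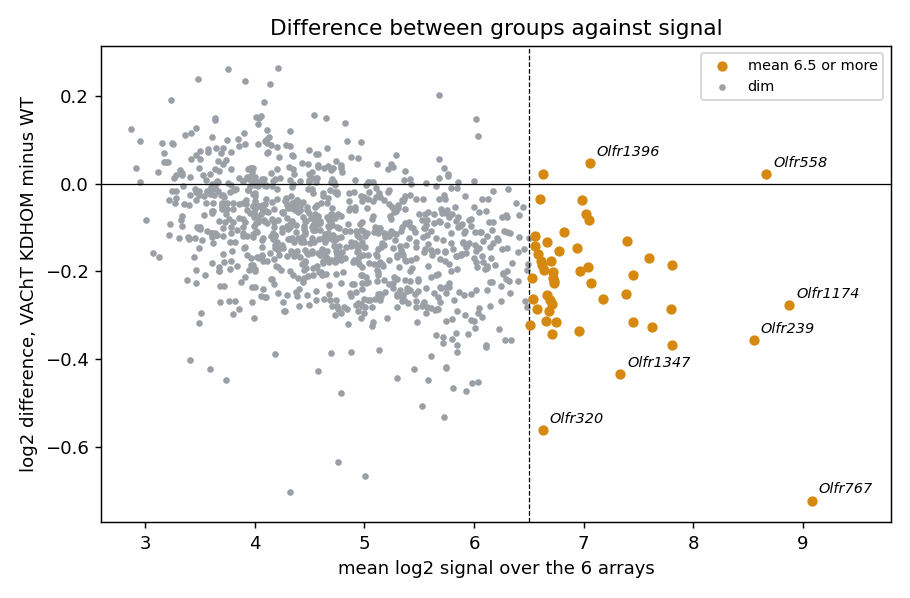
Log2 difference of VAChT KDHOM minus WT (y axis) against mean log2 signal (x axis) for 1035 olfactory receptor probe sets, members in orange, dim family members in grey, 1 point per probe set. The cloud drifts below 0 with rising signal, and Olfr767, Olfr320 and Olfr1347 lie lowest among members.

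The difference changed along the range of signal without a break at the limit. Its median was -0.04 for the 220 probe sets with a mean below 4, -0.10 for the 407 with a mean of 4 to 5, -0.15 for the 279 with 5 to 6, and -0.16 for the 77 with 6 to 6.5. Among the members it was -0.21 for the 32 below 7 and -0.24 for the 20 at 7 or more. The share below 0 was 68.6% with a mean below 4, 81.8% for 4 to 5, 92.5% for 5 to 6 and 97.4% for 6 to 6.5, and among the members 96.9% below 7 and 90% (18 of 20) at 7 or more.

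In 18 of the 52 members (34.6%) all 3 VAChT KDHOM arrays were below all 3 WT arrays, and in 0 members above. The same order was found in 17.7% of the dim family members and 12.9% of all probe sets. The opposite order was found in 0.61% of the dim family members and 6.25% of all probe sets. Without both arrays numbered 2, both VAChT KDHOM arrays were below both WT arrays in 32 members (61.5%), 44.2% of the dim family members and 27.9% of all probe sets. After each array's median of the dim family members was subtracted, 44 members had a difference below 0, and the median difference was -0.10. On that scale 473 of 983 dim family members and 10584 of 35556 probe sets were below 0. All 3 VAChT KDHOM arrays were then below all 3 WT arrays in 10 members, and the share of this order over other probe sets was not counted. Olfr767 (-0.61) and Olfr320 (-0.45) were still past both thresholds on that scale, where 156 of 35556 probe sets were lower by them. The median of all probe sets moved to 0.10 there, and Olfr558 stood at 0.14.

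The members also shared which arrays were extreme. Array 1 of WT was the highest array for 39 of 52 members (75%), 52.7% of the dim family members and 31.2% of all probe sets. Array 3 of VAChT KDHOM was the lowest for 39 members (75%), 41.5% of the dim family members and 24.4% of all probe sets. Both held at once for 32 members, and this joint share was not counted over other probe sets. The members' median signal was 6.80, 6.73 and 6.68 on the VAChT KDHOM arrays, against 7.08, 6.87 and 6.85 on the WT arrays. The dim family members had 4.61, 4.62 and 4.54 on the VAChT KDHOM arrays, against 4.79, 4.68 and 4.64 on the WT arrays. Both sets thus had the same highest and lowest array, and so did Omp. The part of array quality in the difference was not tested.

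**Figure D4:**
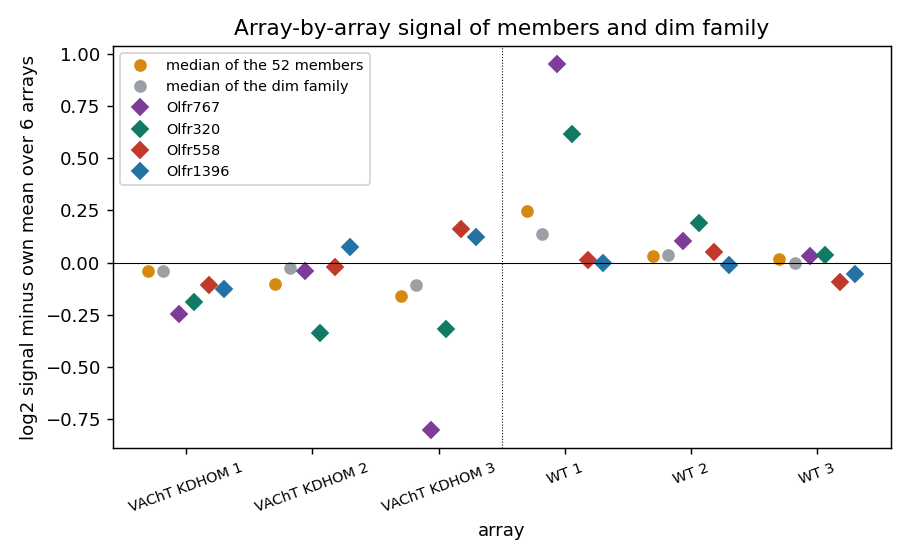
Log2 signal on each array minus its own mean over the 6 arrays (y axis), for the median of the 52 members, the median of the dim family members, and Olfr767, Olfr320, Olfr558 and Olfr1396, VAChT KDHOM arrays left of WT arrays. Olfr767 and Olfr320 exceed both medians on array 1 of WT, while Olfr558 and Olfr1396 stay near 0 there.

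The SD within a group had a median of 0.16 over the members, 0.13 over the dim family members, 0.13 over all probe sets and 0.11 over named genes of other families in the same signal range. The 5 widest spans belonged to Olfr767 (1.76), Olfr320 (0.95), Olfr1347 (0.89), Olfr140 (0.83) and Olfr1148 (0.83), and array 1 of WT was the highest in each. At the other end, Olfr322 spanned 0.21 and Olfr1396 0.25.

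By position, members were spread over 13 chromosomes and differed from the dim family members in where they sat. Chromosome 11 held 15 of the 52 (28.8%), against 56 of 976 dim genes (5.74%). Those 15 were Olfr30, Olfr54, Olfr222, Olfr225, Olfr314, Olfr320, Olfr322, Olfr398, Olfr401, Olfr411, Olfr462, Olfr1393, Olfr1394, Olfr1395 and Olfr1396, and their log2 differences ran over -0.56 for Olfr320 to 0.05 for Olfr1396. Chromosome 2 held 5 (9.62%) against 272 (27.9%). On chromosome 7 the shares were close, 12 (23.1%) against 208 (21.3%), and the 4 Mb around Olfr558 that hold the class I cluster had 7 members (13.5%) and 109 dim genes (11.2%). A member as the adjacent receptor gene within 100 kb was found for 15 members (28.8%) and 64 dim genes (6.56%). Genes of a cluster are related in sequence and probe sets of relatives can bind the same transcript, so these shares are counts without a test.

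Members were also closer to genes of other families. The median distance to the nearest protein-coding gene outside the receptor family was 37770 bp for members, against 153000 bp for dim genes. Within 5 kb, 6 members (11.5%) and 14 dim genes (1.43%) had such a neighbour. Where the nearest neighbour had a probe set, it reached 6.5 for 24 of 43 members (55.8%) and 377 of 862 dim genes (43.7%).

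The 5 closest neighbours are given with their own values. Olfr314 overlaps Fam183b, on the other strand, whose mean signal was 6.12. Olfr524 overlaps Cd163l1, a scavenger receptor gene on the other strand, whose mean signal was 7.10 and whose difference of -0.21 was near the -0.17 of Olfr524. Olfr1393 lies 846 bp from Mgat1, a glycosyltransferase gene on the same strand, with a mean signal of 7.95 and a difference of -0.04 beside -0.32 for Olfr1393.

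Olfr30 lies 1949 bp from Lypd9, on the same strand, and the differences were -0.27 for Lypd9 and -0.31 for Olfr30. Olfr70 lies 2332 bp from Tmem8b, on the other strand, with a mean signal of 8.55 and a difference of 0.02 beside -0.29 for Olfr70. Of these 5 pairs, Cd163l1 and Lypd9 were within 0.05 of their receptor's difference. Transcript running in from a neighbour was not tested.

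**Figure D5:**
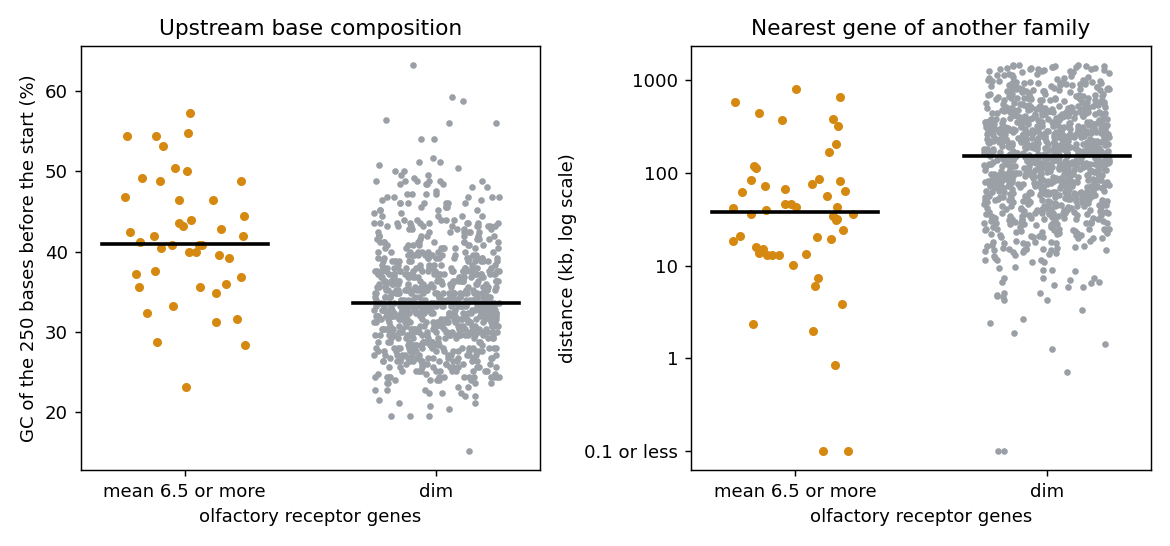
G and C content (percent) of the 250 bases before the annotated start, left. Distance in kb to the nearest protein-coding gene of another family (log axis, overlaps drawn at the lowest level), right. Members are in orange and dim family members in grey, 1 point per probe set with a line at the median and sideways scatter only for visibility. Members lie toward higher G and C content (median 41% against 33.6%) and shorter distances, with wide overlap.

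The bases before the annotated starts differed in composition. Some of these windows, such as those of Olfr1393 and Olfr524, lie inside a longer gene model. RefSeq windows matched 44 of 52 members and 822 of 976 dim genes. The G and C content had a median of 41% over members, against 33.6% over dim family members and 52.4% over all windows of the table. Members made up 1.5% (3 of 200) of the family below 30% G and C and 18.6% (13 of 70) at 45% or more. Across the family the signal and the G and C content had a Pearson r of 0.44 and a Spearman rho of 0.42 (872 probe sets, some sharing a window), and the signal and the distance to a gene of another family an r of -0.30 and a rho of -0.40 (1035 probe sets), both across genes that share clusters and probes. The ATG of the coding region stood at the annotated start in 75% of member windows, 72.2% of dim windows and 5.83% of all windows. Most annotated receptor starts thus lie at the coding region, and these windows need not hold the promoter.

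The 5 motifs were counted on both strands of these windows. The homeodomain core TAATTA was in 13.6% of member windows, 18.3% of dim windows and 4.84% of all windows. TATAAA was in 34.1% of member windows, 39.8% of dim windows and 12.4% of all windows. The O/E site of olfactory neuron factors, searched as TCCC and GGGA with any 2 bases between, was in 0% of member windows, 0.363% of dim windows and 0.779% of all windows. The GATA motif AGATAA, of factors that act in the heart among other tissues, was in 13.6% of member windows, 26.5% of dim windows and 9.99% of all windows. The MEF2 motif TAAAAATA, of muscle factors, was in 2.27% of member windows, 10.8% of dim windows and 2.45% of all windows, and it can overlap TATAAA. Of the 44 member windows, 6 held the homeodomain core, 15 TATAAA, 6 AGATAA and 1 TAAAAATA, and no difference between members and dim genes was tested.

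Gene models longer than 1500 bp, as for Olfr558, were found for 9 members (17.3%) and 151 dim genes (15.5%), and more than 1 RefSeq transcript for 7 members (13.5%) and 68 dim genes (6.97%). The longest member model is that of Olfr91, with 40147 bp, and Olfr1393 has 10 RefSeq transcripts, the most of any member.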

How the data were processed

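RNA pools from hearts of VAChT KDHOM and WT mice were hybridised to 6 Mouse Gene 1.0 ST arrays. The authors normalised the arrays by RMA in Partek Genomics Suite and deposited log2 signal per probe set, which was used as deposited. The genome build behind the probe sets is not given in the sources used here. Of 35556 probe sets, 21789 have 1 gene symbol in the platform annotation, 1621 several and 12146 are unlisted. The contrast VAChT KDHOM minus WT was fitted with lmFit and eBayes (limma 3.58.1, R 4.3.3) over all probe sets, with Benjamini-Hochberg adjustment. The fit was tested on simulated data. Genes were matched to RefSeq (GRCm38.p6) by Entrez ID.

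The text names the 10 brightest members, those past an unadjusted p of 0.05 and 1.3-fold, 3 on each side of the limit of 6.5, the 5 widest spans, the 5 closest neighbours and listed receptors. Olfr71, Olfr322, Olfr1396, Olfr417, the receptors on chromosome 11, Prm2, Actc1, Lhx2 and Ogdhl were also chosen after their values were seen. Members and lists were chosen with earlier results of these data known. Other normalizations, centrings, filters, limits, array weights, left-out arrays and the replicate number as a block were tried. Array numbers limit the precision. Proteins were not compared.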

Additional observations from a re-analysis of the deposited data

How the results depend on the processing

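The number of members depends on the limit: 129 at a mean of 6.0, 20 at 7.0, and 31 where each array had to reach 6.5. The median difference was -0.10 after centring on the dim family members, and the other settings kept its sign. Leaving out 1 array gave -0.14 (without array 1 of WT; also -0.14 without array 3 of VAChT KDHOM) to -0.29 (without array 3 of WT), in place of -0.22, so array 1 of WT and array 3 of VAChT KDHOM each moved it by over 1.5 times. Members past an unadjusted p of 0.05 and 1.3-fold numbered 3, but 1 with array weights, 1 with the methods' ANOVA and 9 without both arrays numbered 2. Of all 35556 probe sets, 594 were lower by these thresholds, but 344 with array weights, 283 with the ANOVA and 1498 without both arrays. Leaving out 1 array gave 1 member (without array 1 of WT) to 8 (without array 2 of VAChT KDHOM). Over all probe sets 316 and 992 were lower in these 2 settings. Olfr320 passed under each of these settings, but it is not in the study's own list. The olfactory receptors in that list are Olfr1087 and Olfr229, both lower. They are dim family members here, with means of 4.09 and 3.68 and labelled differences of -0.26 and -0.20. No member passed an adjusted p of 0.05 in limma under any setting. The difference of Olfr558 turned to -0.0316 with a further quantile normalization and -0.0112 with array weights, and leaving out 1 array gave -0.0541 to 0.0804, below 0 without array 3 of either group. The replicate block gave 3 members past both thresholds and 20, in place of 15, at the unadjusted p. Over all 35556 probe sets 651 were lower past both thresholds with the block, and 2908, in place of 2776, at the unadjusted p. Deviations from the group mean, on arrays sharing a number, had correlations of 0.06, -0.12 and 0.13. With 3 arrays per group these values cannot settle whether the numbers pair the samples. The cause of these changes was not tested.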
